A study of Phanerodontia chrysosporium with 12 samples.

Results

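The first hour after oak extractives were added was described from 6 of the 12 libraries of the series: the 3 cultures of Phanerochaete chrysosporium harvested after 1 h and the 3 harvested at T0. They were chosen by the treatment in their labels, and 11813 of the 13602 protein IDs in the deposited tables had enough reads to be tested. The cultures at 1 h were mycelium of the homokaryotic strain RP78, grown standing in 20 ml of minimal medium with glucose for 4 days at 37 °C. They were then given acetone-soluble heartwood extractives of Quercus petraea to 100 µg/ml, diluted from a DMSO stock of 200 mg/ml. The T0 cultures, labelled Control T0, were the same strain, medium and age. By the sample descriptions they received the same extractives and were harvested at once. Both groups therefore carried extractives and DMSO, and they differed in the hour of contact. Cultures with DMSO alone were not analysed here, so time in culture, DMSO and extractives cannot be told apart. All cultures were 1 strain in liquid medium, with glucose as a sugar source and no wood.

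Heartwood extractives are the small molecules that a tree lays down in its dead inner wood. In oak they include hydrolysable tannins and other phenolics, many of which are toxic or bind metals and proteins. P. chrysosporium is a white-rot basidiomycete: it breaks down lignin with secreted peroxidases and meets such compounds when it enters wood. Fungi are known to answer foreign small molecules with cytochrome P450s, glutathione transferases, reductases and export pumps. The deposited tables list each gene model by a numeric protein ID and do not pair the IDs with names, so no function is given to any ID here.

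Depth was uneven. Total gene reads were 6999282, 2137932 and 3002663 in 1 h replicates 1 to 3 and 9127928, 3007296 and 2498521 in T0 replicates 1 to 3. Proteins 3014073 (650 nt) and 2891358 (156 nt) together took between 9.61% and 65.9% of the reads at 1 h and between 4.31% and 50.9% at T0, so the replicates of each time spread widely and the times overlapped. Neither passed the edgeR quasi-likelihood test, with log2 fold changes of 0.57 and 0.60 and Benjamini-Hochberg adjusted p-values of 0.818 and 0.799. Both are left out of every read share below unless it is stated that they were kept in. The other IDs were measured with 6326762, 729521 and 1651318 reads at 1 h and 8734461, 1600180 and 1225852 reads at T0, so 1 h replicate 2 was the least precise library. For a level in CPM (counts scaled to the library size after TMM normalization), a count of 0 allowed up to 2.90 CPM there and up to 0.222 CPM in T0 replicate 1. These limits cover counting error only.

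One T0 library stood apart from the other two. The share of reads that 2 libraries place on different IDs, outside the dominant pair, was 16.6%, 13.2% and 18.8% among the pairs at 1 h. Among T0 libraries it was 13.9% between replicates 1 and 3, 20.3% between replicates 1 and 2 and 24.0% between replicates 2 and 3. Between the times it ran from 18.1% to 33.1%. T0 replicate 2 differed from 1 h replicates 1 and 3 by 18.9% and 18.1%, less than from either other T0 library, and from 1 h replicate 2 by 22.2%. The dominant pair took 46.8% of its reads, against 4.31% and 50.9% in T0 replicates 1 and 3.

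Each library was also placed among IDs called in an edgeR fit that left it out, on a log2(CPM + 1) scale from its own time (0%) to the other time (100%). At the median ID, 1 h replicates 1 to 3 lay at 11.1%, 22.9% and -4.78% of the way to T0. The T0 libraries lay at 12.9%, 53.8% and -8.28% of the way to 1 h. T0 replicate 2 was nearer its own time for 662 of 1432 IDs (46.2%), against 77.3% to 97.9% for the other libraries. Every T0 mean and every call below includes T0 replicate 2 unless its absence is stated, and what sets it apart was not tested.

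**Figure D1:**
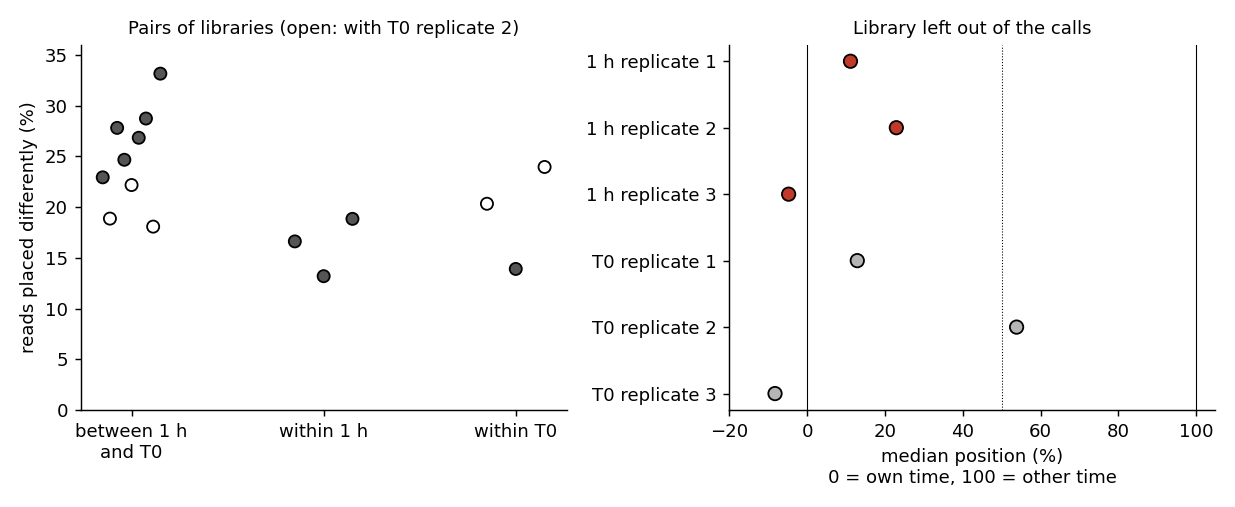
Left, percentage of reads outside the dominant pair placed on different IDs for each pair of libraries, with open points for pairs that include T0 replicate 2. Right, median position of each library between its own time (0) and the other time (100) among IDs called without it. T0 replicate 2 lies at 53.8%, and the other 5 libraries lie between -8.28% and 22.9%.

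Within 1 h, 366 protein IDs rose and 372 fell, which were 3.10% and 3.15% of the 11813 tested and 6.25% together (edgeR quasi-likelihood test, Benjamini-Hochberg adjusted p under 0.05). Rises and falls were thus about equally many. Over all tested IDs the median log2 fold change was 0.01, with quartiles of -0.45 and 0.50 and 50.7% of IDs above 0. TMM scaling holds the bulk of IDs near 0, so a shift of all IDs together could not be seen. At an unadjusted p under 0.05 there were 2610 IDs (22.1%). The 3 libraries at 1 h all lay above the 3 at T0 for 1426 tested IDs (12.1%) and all below for 1479 (12.5%), 24.6% together. Of the called IDs, 359 that rose and 365 that fell had no overlap between the times.

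The number of calls depended on which libraries were used. Leaving out T0 replicate 1 gave 342 calls of 11910 tested IDs and leaving out T0 replicate 3 gave 316 of 12038. Leaving out 1 h replicate 1 gave 319 of 11921. Without 1 h replicate 2 there were 612 of 12056, and without 1 h replicate 3 there were 233 of 12058. Without T0 replicate 2 there were 1432 (11.9% of the IDs tested there), 742 higher (6.16%) and 690 lower (5.73%). DESeq2 on the 12 libraries called 1350 IDs (13.4%), and the edgeR fit of the 6 libraries alone called 472 (4.72%). No ID called with all libraries changed its sign in any of these fits. A core of 193 IDs, 112 higher and 81 lower, was called with all libraries and without each of the 6 in turn. The core IDs had median log2 fold changes of 2.00 (quartiles 1.74 and 2.64) and -1.88 (quartiles -2.22 and -1.70), and a choice of this kind favours large changes.

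Rises went further than falls. A typical riser changed by a log2 fold change of 1.52 and a typical faller by -1.36, both medians. Of the calls past 4-fold, 92 were higher and 51 lower. Without T0 replicate 2, 157 of 226 such calls were higher, and without 1 h replicate 3, 53 of 88. With each library's length trend removed, as described below, 83 of 153 were higher (54.2%), which is nearer balance. Past 8-fold, 26 called IDs were higher and 2 lower. Called or not, 39 tested IDs were at least 8-fold higher and 4 at least 8-fold lower. The excess of 8-fold rises among called IDs was seen in each alternative fit, with between 18 and 33 IDs higher and between 1 and 6 lower. Calls under 2-fold were few, with 28 higher and 40 lower. Many IDs past 2-fold did not pass the test, among them 762 higher and 646 lower.

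**Figure D2:**
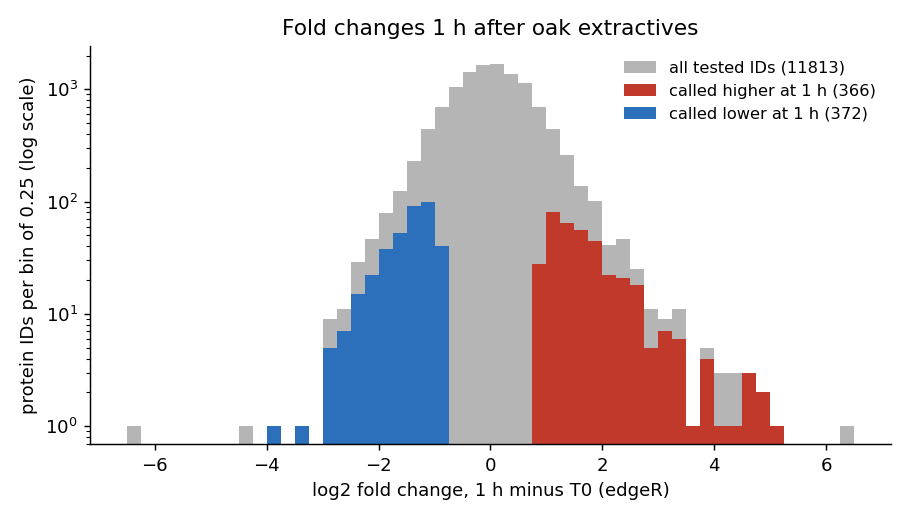
Number of protein IDs by log2 fold change of 1 h over T0, in bins of 0.25 on a logarithmic count axis. Grey bars hold all 11813 tested IDs, red bars the 366 that rose and blue bars the 372 that fell, and the red side reaches further out than the blue side.

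By median level, risers stood below fallers at T0 and above them at 1 h. Levels between IDs are given here as RPKM on the TMM-scaled library size, that is, CPM per kilobase of gene. Median levels of the 366 risers were 69.1, 60.6 and 73.1 RPKM in 1 h replicates 1 to 3, against 22.8, 28.8 and 20.4 RPKM in T0 replicates 1 to 3. Fallers showed the reverse, with medians of 17.7, 19.9 and 17.8 RPKM at 1 h and 48.6, 41.0 and 52.1 RPKM at T0. In both sets T0 replicate 2 was the T0 library nearest to 1 h, and every T0 median stayed clear of those at 1 h, as the choice of called IDs requires. At 100 RPKM or more stood 133 of the risers at 1 h and 31 at T0, against 29 and 102 of the fallers.

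A small part of the called IDs made up much of the gain and of the loss. Summed over the risers, levels were 55589 CPM at 1 h and 16416 CPM at T0, and 28 IDs made up 50% of the difference. Summed over the fallers they were 21399 CPM and 58858 CPM, and 36 IDs made up 50%. The 10 largest gains held 31.3% of the summed gain and the 10 largest losses 26.6% of the summed loss. With the dominant pair left out of the total, the risers held 7.69%, 6.70% and 8.37% in 1 h replicates 1 to 3 and 2.34%, 2.61% and 2.10% in T0 replicates 1 to 3. Fallers held 3.12%, 3.07% and 2.63% at 1 h and 8.83%, 6.76% and 10.1% at T0. These sums follow from how the IDs were chosen.

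Protein 7087 (1746 nt) had the largest rise among called IDs without overlap that reach 10 CPM. It stood at 464, 425 and 633 CPM in 1 h replicates 1 to 3, against 9.99, 8.64 and 22.9 CPM in T0 replicates 1 to 3. All 3 libraries at 1 h lay far above all 3 at T0. The edgeR test put the rise at 38.1-fold, a log2 fold change of 5.25 (SE 0.489, adjusted p 4.62e-05). Counts were 4214, 439 and 1325 reads at 1 h and 135, 18 and 42 reads at T0, none of them shared with another model.

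Protein 2990416 (673 nt) came next. Its levels were 127, 70.6 and 148 CPM at 1 h and 3.62, 6.72 and 0.546 CPM at T0, so the times were again far apart. The shallow 1 h replicate 2 was the lowest of the 3 at 1 h. By edgeR the rise was 31.3-fold, a log2 fold change of 4.97 (SE 0.599, adjusted p 0.000205). With 49, 14 and 1 reads at T0, the size of this rise rests on few reads there.

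Protein 121734 (1173 nt) had the largest fall by the same rule. It was at 3.96, 0 and 1.91 CPM in 1 h replicates 1 to 3, against 28.8, 14.9 and 16.4 CPM in T0 replicates 1 to 3. The 0 reads in 1 h replicate 2 allow a level of up to 2.90 CPM, and the 3 libraries at 1 h lay below the 3 at T0. By edgeR it was 7.89-fold lower, a log2 fold change of -2.98 (SE 0.698, adjusted p 0.0195). That call failed when T0 replicate 1 (edgeR adjusted p 0.102) or 1 h replicate 3 (0.0980) was left out and in the test against a 1.5-fold change (0.0529), and the adjusted p ran from 0.00048 to 0.102 over 21 alternatives. Without 1 h replicate 1 the log2 fold change was -4.06.

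Protein 3022570 (552 nt) fell and had a higher start. Levels were 16.2, 22.2 and 20.5 CPM at 1 h and 83.6, 192 and 158 CPM at T0. The libraries at 1 h lay close together, while those at T0 spread over a range in which replicate 1 was lowest. By edgeR it was 7.48-fold lower, a log2 fold change of -2.90 (SE 0.350, adjusted p 0.000205). Proteins 7087, 2990416 and 3022570 kept their calls in each of the 21 alternatives.

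**Figure D3:**
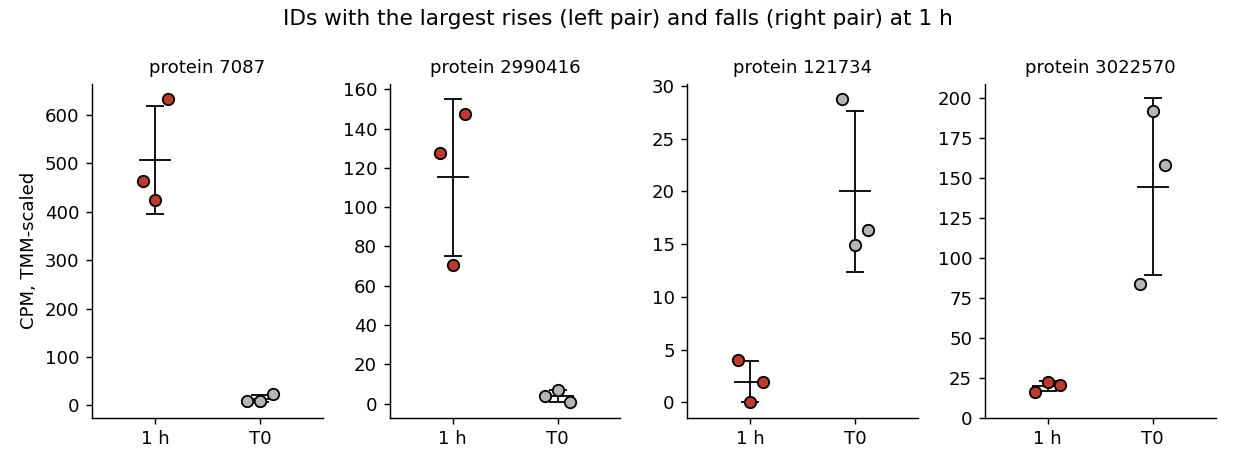
Levels in CPM after TMM scaling of the 2 IDs with the largest rises and the 2 with the largest falls among called IDs without overlap that reach 10 CPM, with 1 point per library and bars for the mean ± SD of 3 libraries, 1 h left of T0. Proteins 7087 and 2990416 are high at 1 h, proteins 121734 and 3022570 are low, and no panel has overlapping times.

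Next, the calls were set against the starting level. By the T0 level, IDs that started low mostly rose when they were called and IDs that started high mostly fell. Among 4205 IDs at 1 to 10 RPKM at T0, 87 rose (2.07%) and 16 fell (0.380%). Among 5888 IDs at 10 to 100 RPKM, 244 rose (4.14%) and 254 fell (4.31%). Among 1251 IDs at 100 to 1000 RPKM, 31 rose (2.48%) and 99 fell (7.91%). At 1000 RPKM and more, 0 of 72 rose and 3 fell. Called or not, the median log2 fold change was 0.86 under 1 RPKM and 0.05 at 1 to 10 RPKM. It was -0.06 at 10 to 100 RPKM, 0.11 at 100 to 1000 RPKM and 0.23 at 1000 RPKM and more. The high classes per length thus did not fall as a whole. By CPM at T0, not divided by length, the medians were -0.10 at 100 to 1000 CPM and -0.34 at 1000 CPM and more. The 2 high classes per length had median lengths of 842 and 514.5 nt, against 1260 and 1029 nt for those by CPM. The share called in either direction was 1.01% under 1 RPKM and 10.4% at 100 to 1000 RPKM, against 6.25% of all tested. The median standard error of a log2 fold change was 1.11 under 1 RPKM, 0.605 at 1 to 10 RPKM and 0.313 at 100 to 1000 RPKM, so changes of low IDs were much harder to call.

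The direction of this relation turned with the libraries that set the classes. The T0 libraries enter both the class and the fold change, so the same calls were also sorted by the mean level in the 6 libraries at 3 h and 6 h, which are outside the contrast but share the estimate of the spread behind the calls. Among 1279 IDs at 100 to 1000 RPKM at those times, 92 rose (7.19%) and 63 fell (4.93%). Of the calls at 100 RPKM or more, 76.7% were falls by the T0 level, 40.3% by the level at 3 h and 6 h and 42.8% by the level over all 12 libraries, the last chosen after the data were seen. Without T0 replicate 2 the share was 40.6% even with T0 classes. The later level is not a neutral measure either. Risers had a median of 24.4 RPKM at T0 and 48.4 RPKM at 3 h and 6 h, and fallers of 49.5 and 30.7 RPKM. Sorting by the later level thus puts risers higher and fallers lower than sorting by T0, so part of the turn is built in. The level over all 12 libraries includes these later libraries and those at 1 h. Sorted by the level at 3 h and 6 h, the share called in either direction was 2.19% at 1 to 10 RPKM, 8.26% at 10 to 100 RPKM and 12.1% at 100 to 1000 RPKM.

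**Figure D4:**
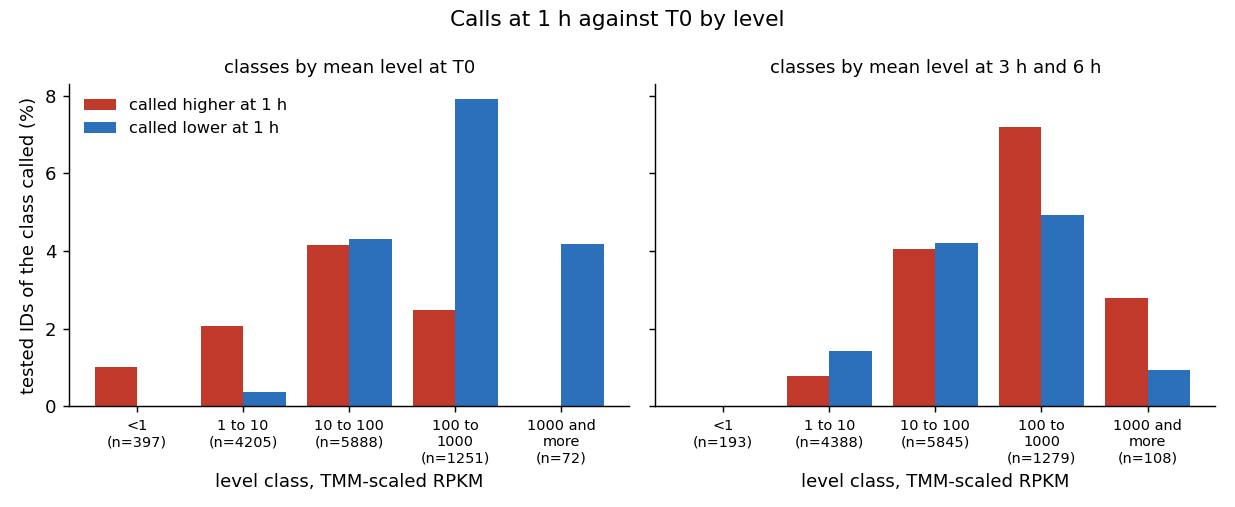
Percentage of tested IDs called higher (red) or lower (blue) at 1 h in classes of level, in RPKM on the TMM-scaled library size. Left, by the T0 level, falls outnumber rises at 100 to 1000 RPKM (7.91% against 2.48%). Right, by the level at 3 h and 6 h, rises outnumber falls there (7.19% against 4.93%).

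The 100 IDs with the highest T0 level per length were called about as often as all tested IDs. Classes of high T0 level in CPM, not divided by length, were called more often. At 100 to 1000 CPM, 177 of 1568 IDs were called (11.3%), 27 higher and 150 lower. At 1000 CPM and more, 5 of 43 were called (11.6%), all lower. Of the 100 IDs with the highest T0 level per length outside the dominant pair (853 RPKM and more), 1 rose and 5 fell, 6% against 6.25% of all tested. Their log2 fold changes had a median of 0.23 (quartiles -0.35 and 0.54), against 0.01 over all tested IDs, and 72 of them were still among the 100 highest at 1 h. They were short, at a median of 520.5 nt against 1275 nt for all tested IDs. All tested IDs under 600 nt had a median log2 fold change of 0.34, so level and length are not told apart here. Read shares were taken outside the dominant pair. The 10 most abundant IDs of a library held 4.03%, 7.23% and 4.75% of these reads at 1 h and 3.77%, 4.66% and 4.41% at T0. For the 100 most abundant the shares were 17.7%, 20.2% and 20.2% at 1 h and 16.3%, 19.3% and 18.4% at T0. In the 1000 most abundant they were 53.9%, 54.0% and 58.0% at 1 h and 50.4%, 56.9% and 52.8% at T0. The times overlapped in each measure, and the 3 differences, 1.05, 1.37 and 1.95 percentage points higher at 1 h, had exact two-sided permutation p-values of 0.4, 0.3 and 0.4 (0.667 each after adjustment over 5 tests). They moved widely with single libraries, from 0.106 (without 1 h replicate 2) to 1.71 points (without 1 h replicate 1) for 10 IDs and from 0.540 (without T0 replicate 1) to 2.23 points (without 1 h replicate 1) for 100 IDs. For 1000 IDs they ran from 0.455 (without T0 replicate 1) to 3.69 points (without T0 replicate 2), with 0.595 points without 1 h replicate 3. With 3 libraries against 3 the smallest p is 0.1.

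No ID seen at only 1 of the times had many reads. Reads were seen at 1 h and not at T0 for 102 IDs, with at most 12 reads summed over the 3 libraries, and at T0 and not at 1 h for 179 IDs, with at most 18. None of these was called, and only 2 and 1 of them had enough reads to be tested. Only 4 of the IDs that rose had a T0 mean under 1 CPM. The number of IDs with at least 10 CPM of the reads outside the dominant pair was 8723, 8522 and 8394 at 1 h and 8834, 8268 and 8490 at T0 (exact two-sided permutation p 0.9).

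Risers tended to be shorter than fallers, with lengths that overlapped widely. The lengths, recovered from the deposited counts and RPKM, had medians of 1050 nt for the risers (quartiles 803 and 1464 nt), 1616 nt for the fallers (1193 and 2169 nt) and 1275 nt for all tested IDs. Under 600 nt, 41 of 1291 IDs rose (3.18%) and 14 fell (1.08%). At 600 to 1200 nt, 178 of 4132 rose (4.31%) and 82 fell (1.98%). The balance then turned, with 126 of 3991 higher (3.16%) and 170 lower (4.26%) at 1200 to 2000 nt. At 2000 to 3000 nt, 17 of 1596 rose (1.07%) and 72 fell (4.51%), and at 3000 nt and more, 4 of 803 rose (0.498%) and 34 fell (4.23%). All tested IDs shifted in the same way, with median log2 fold changes of 0.34, 0.16, -0.03, -0.21 and -0.37 in these 5 classes. Short IDs stood higher at T0, at a median of 35.5 RPKM under 600 nt and 11.3 RPKM at 3000 nt and more. Among the IDs at 10 to 100 RPKM at T0, a choice made after the data were seen, the order was the same: 24 of 553 rose and 4 fell under 600 nt, and 2 of 431 rose and 24 fell at 3000 nt and more.

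The libraries carried a length trend of their own. Over the 8094 IDs that averaged at least 10 CPM, the log2 level of a library against the mean of the 12 libraries changed per doubling of gene length by -0.12, 0.06 and -0.30 in 1 h replicates 1 to 3 and by 0.25, -0.20 and 0.34 in T0 replicates 1 to 3. T0 replicate 2 thus favoured short IDs, like 1 h replicates 1 and 3, and the other T0 libraries favoured long ones. The times overlapped, and the mean difference of -0.25 had an exact two-sided permutation p of 0.3, a test added after the data were seen. The 6 later libraries had slopes between -0.21 (3 h replicate 2) and 0.22 (3 h replicate 3), so replicates of 1 time could differ as much as the times did.

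When the length trend of each library was removed, 485 IDs were higher (4.11% of those tested) and 520 lower (4.40%), 8.51% together, and the end classes came near balance. Under 600 nt there were 48 of each, and at 3000 nt and more 24 rose and 26 fell. At 600 to 1200 nt, 187 rose and 162 fell, and at 2000 to 3000 nt, 59 rose and 64 fell. At 1200 to 2000 nt, 167 rose and 220 fell, so falls were 56.8% of the calls there, near the 57.4% as deposited. Of the calls at 2000 nt and more, 83.5% were falls with the counts as deposited and 52.0% with the trend removed. Of the calls under 1200 nt, 69.5% were rises as deposited and 52.8% with the trend removed. This removal takes out any length trend, of the libraries or of the response, and the 2 cannot be told apart with slopes that overlap between times. Without T0 replicate 2 the difference by length was wider, with 91.4% falls at 2000 nt and more and 79.6% rises under 1200 nt. Of the 738 IDs called as deposited, 682 (92.4%) were called in the same direction with the trend removed, 67.9% of the 1005 calls there.

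**Figure D5:**
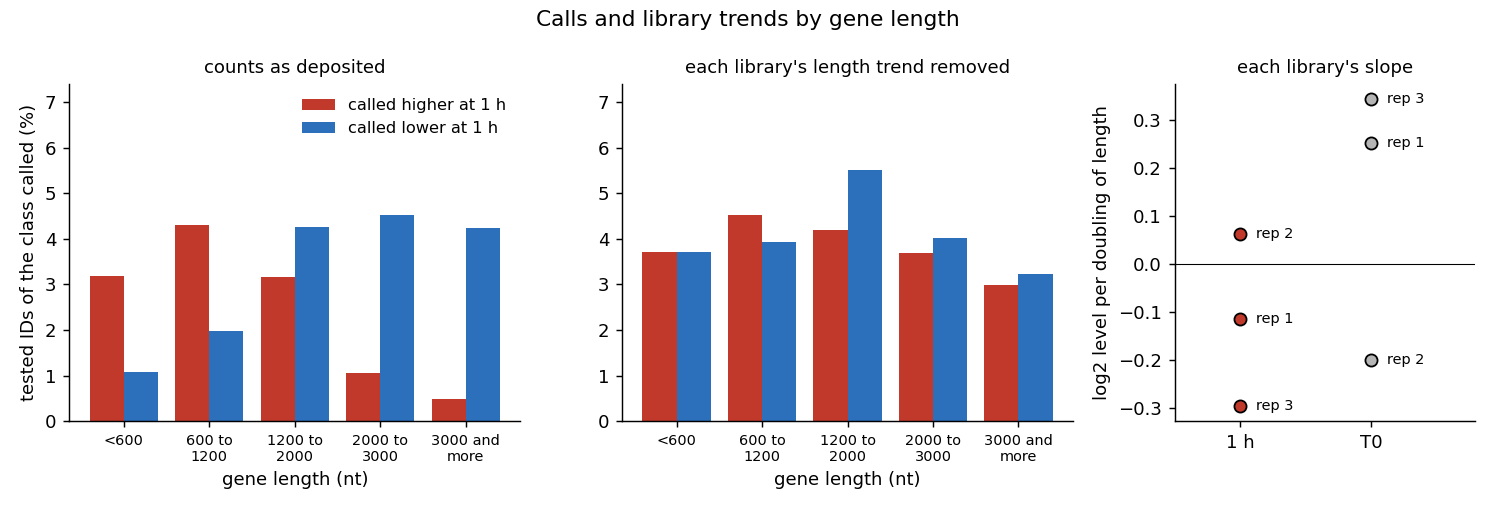
Left and middle, percentage of tested IDs called higher (red) or lower (blue) at 1 h by gene length, with counts as deposited and with each library's length trend removed. Right, change of log2 level per doubling of gene length in each library, with 1 h at -0.12, 0.06 and -0.30 and T0 at 0.25, -0.20 and 0.34 for replicates 1 to 3.

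Among the core of 193 IDs, called with all libraries and without each of the 6 in turn, level and length are given as a description, since the choice of IDs sets the order of the levels. Its 112 risers had a median length of 1156 nt and median levels of 96.0 RPKM at 1 h and 22.5 RPKM at T0. Its 81 fallers had a median length of 1507 nt and median levels of 23.5 RPKM at 1 h and 85.4 RPKM at T0. Past 8-fold, 20 of them were higher and 0 lower. Of the 23 core IDs at 2000 nt and more, 7 rose and 16 fell.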

How the data were processed

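Levels were read from 1 deposited table per sample. Per the file headers, the authors deposited counts of total gene reads, counts of unique gene reads and RPKM values for 13602 protein IDs. The sources used here do not give the aligner, counter, genome build, annotation or strand use. Total gene reads were tested as deposited, and the deposited RPKM values served only to recover gene lengths (13120 IDs, recomputed RPKM within a relative gap of 2.1e-08). Reads not unique to 1 model were 0.641% to 1.01% of the 6 libraries.

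The 12 libraries were fitted in R 4.3.3 with edgeR 4.0.16 (glmQLFit, glmQLFTest, TMM scaling, filterByExpr with its count minimum of 10, group as the only term, 8 residual degrees of freedom), contrast 1 h minus T0, adjusted p under 0.05 over 11813 IDs. The SE of a log2 fold change was back-calculated from its F statistic. Replicates are called biological by the labels. No pair within a time agreed within sampling noise (chi-square per degree of freedom 13.6 or more). Scripts were tested on simulated counts.

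Named IDs are the 2 largest rises and 2 largest falls among called IDs whose times do not overlap and that average 10 CPM at either time, plus the dominant pair. The comparison, classes and lists were chosen with earlier results of these data known. Gene groups by function were not analysed here. Alternatives were DESeq2 size factors, upper quartile scaling, other filters, DESeq2 1.42.0, limma-voom (limma 3.58.1), a block for the replicate number, the 6 libraries alone, leaving out each library, stricter thresholds, unique reads, the dominant pair left out or as a covariate, removal of a lowess trend on length (span 0.3) and thinning to 729521 reads per library.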

Additional observations from a re-analysis of the deposited data

How the results depend on the processing

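Leaving out 1 library at a time gave 233 to 1432 changed IDs (132 to 742 higher, 101 to 690 lower), with rises making up 46.5% to 56.7% of calls. Falls were then 40.6% to 86.9% of calls at 100 RPKM or more at T0 and 64.3% to 91.4% of those at 2000 nt and more, and rises 56.5% to 79.6% of those under 1200 nt. IDs without overlap came to 44.8% without T0 replicate 2 and to 30.4% to 37.3% in the other such fits, against 24.6% with all libraries. A rise over 24.6% is partly built in, since 2 libraries overlap less often than 3. DESeq2 called 1350 IDs (657 higher, 693 lower; falls 68.3% at 100 RPKM or more), the 6 libraries alone 472 (228 lower; 27.0% without overlap), the test against a 1.5-fold change 217 (124 and 93; rises 57.1% of calls, falls 70.4% at 2000 nt and more), and an adjusted p under 0.01 gave 219 (121 and 98; 55.3% and 73.1%). Rises were 53.8% of calls in limma-voom. Without a filter 22.5% of tested IDs had no overlap, and with at least 5 CPM in 3 libraries 26.5%. Falls among calls at 100 or more were 85.2% by CPM at T0, 40.3% by the level at 3 h and 6 h and 42.8% by the level over 12 libraries. Rises under 1200 nt were 75.8% among IDs at 10 to 100 RPKM at T0. With the length trend removed, rises were 54.2% of calls past 4-fold and 52.8% under 1200 nt, and falls 52.0% at 2000 nt and more. Without 1 h replicate 2 the log2 fold changes of proteins 3014073 and 2891358 were -0.36 and -0.47, and without 1 h replicate 1 they were 1.10 and 1.13. Beyond what construction sets, the cause of these shifts was not tested. Deviations of same-numbered libraries from their time means correlated at r = 0.20, -0.33 and -0.44 for numbers 1 to 3. For unlike numbers r ran from -0.17 to 0.51. Trends of whole libraries, such as that with gene length, enter these values, so they cannot decide whether replicate numbers pair the cultures. With the replicate block 611 IDs were called, rises were 55.8% of calls and falls 67.2% of those at 100 RPKM or more. With the dominant pair kept in, the share of the 10, 100 and 1000 most abundant IDs was 6.29, 5.85 and 4.37 percentage points higher at 1 h. The exact two-sided permutation p-values of these differences were 0.8, 0.7 and 0.6. No scaling moved the median log2 fold change of all IDs by more than 0.1. Each of these scalings holds the bulk of IDs near 0, so a shift of all IDs together was not tested. A count of 0 allows the highest level in 1 h replicate 2, 2.90 CPM.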

Other observations

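The levels of these IDs at 3 h and 6 h are given as values beside those of the first hour. The libraries of these times are outside the contrast but share its fit, and so its estimate of the spread. Medians over the 366 risers were 20.4 to 28.8 RPKM in the T0 libraries, 60.6 to 73.1 RPKM at 1 h, 41.5 to 51.9 RPKM at 3 h and 40.2 to 46.3 RPKM at 6 h. Medians over the 372 fallers were 41.0 to 52.1 RPKM at T0, 17.7 to 19.9 RPKM at 1 h, 25.7 to 30.1 RPKM at 3 h and 29.6 to 32.9 RPKM at 6 h. In both sets the later medians lay between those of T0 and 1 h. Since the IDs were picked by their difference between these times, values between them follow in part from that choice. After the first hour, protein 2990416 averaged 13.8 ± 7.66 CPM (3 h) and then 9.54 ± 5.71 CPM (6 h; SD, n = 3 each). Protein 121734 averaged 20.0 ± 7.63, 1.96 ± 1.98, 2.17 ± 0.514 and 4.28 ± 3.08 CPM over T0, 1 h, 3 h and 6 h. In the same order, protein 3022570 averaged 144 ± 55.3, 19.7 ± 3.13, 91.4 ± 19.6 and 132 ± 37.5 CPM.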
